A study of Homo sapiens with 24 samples.

Results

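MicroRNA host lncRNAs are the long noncoding precursor transcripts from which microRNAs are cut. They were taken here as every gene whose symbol starts with MIR, continues with digits or capital letters and ends in HG, and 56 of the 58884 genes listed in both expression tables carried such a symbol. All samples came from HEK293T, a line derived from human embryonic kidney. In KO cells SETD2, the gene of the enzyme that trimethylates histone H3 in transcribed genes, had been disrupted on both alleles. RNA of 10 libraries was measured as TPM, an abundance per length of transcript and per library. The first table held 2 WT and 2 KO libraries, and replicate numbers are those of the labels. The second held 2 KO libraries, 2 libraries of KO cells expressing full-length SETD2 (SETD2 FL) and 2 of KO cells expressing SETD2 C, a construct that lacks the N-terminal region. Both constructs were introduced by transfection, whereas the labels describe the KO libraries as untreated, so construct and transfection cannot be told apart in comparisons with KO. The sources used here do not say of these sequencing libraries whether replicates were separate cultures, so p-values measure only the spread between these libraries, which may be technical. The number of cells behind a library and the RNA per cell cannot be told apart in bulk samples.

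A microRNA gene is transcribed as a long primary transcript, in which the hairpin is recognised and cut by DROSHA with DGCR8. The hairpin is exported, trimmed by DICER1 and loaded onto an Argonaute protein, which finds messenger RNAs by pairing with the seed near the microRNA's 5′ end. The host transcript that remains is a lncRNA, and its level reports on transcription and stability of the precursor rather than on the mature microRNA. Mature microRNAs were not measured here.

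The mature sequences below are those of the hosts that passed the test in at least 1 comparison, read from RefSeq on GRCh38.p14 and written 5′ to 3′ with the seed (bases 2 to 8) in capitals. They are shown because MIR4458HG and MIR4500HG share a seed with each other and with let-7. MicroRNAs within MIR222HG and within MIR17HG also share seeds. The microRNAs of MIR4458HG and MIR4500HG carry the seed of let-7, a family that restrains growth and stem cell genes, as do let-7c from the host MIR99AHG and let-7a and let-7b from MIRLET7BHG, hosts that passed no test.
miR-4458: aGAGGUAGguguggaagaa
miR-4500: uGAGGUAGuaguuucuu
let-7c-5p: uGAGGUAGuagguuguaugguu
The paired microRNAs of MIR222HG, known as repressors of the cell cycle inhibitor CDKN1B, share 1 seed.
miR-221-3p: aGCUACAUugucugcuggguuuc
miR-222-3p: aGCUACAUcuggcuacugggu
MIR210HG carries the hypoxia-induced microRNA miR-210, and MIR503HG the cell cycle microRNA miR-503. The hairpin of miR-424, also a cell cycle microRNA, overlaps the start of MIR503HG only in part, and its mature sequences lie before that start. The seeds of miR-503 and miR-424 are close but not the same.
miR-210-3p: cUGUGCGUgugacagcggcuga
miR-503-5p: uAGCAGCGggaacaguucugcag
miR-424-5p: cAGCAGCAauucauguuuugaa
MIR17HG is the precursor of a growth-promoting cluster of 6 hairpins, in which 2 pairs of microRNAs share a seed.
miR-17-5p: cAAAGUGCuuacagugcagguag
miR-20a-5p: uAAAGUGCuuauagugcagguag
miR-19a-3p: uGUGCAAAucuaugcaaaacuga
miR-19b-3p: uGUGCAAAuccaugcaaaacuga
miR-18a-5p: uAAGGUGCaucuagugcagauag
miR-92a-3p: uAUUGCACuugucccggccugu
The other 4 hosts carry 1 microRNA each on their own strand, of which miR-34a is the best known, as a target of p53.
miR-34a-5p: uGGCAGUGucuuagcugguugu
miR-4453: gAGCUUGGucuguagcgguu
miR-3936: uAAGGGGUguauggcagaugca
miR-762: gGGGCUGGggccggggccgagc

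Most microRNA host lncRNAs were not detected or barely detected in these cells. Of the 56, 18 were listed at a TPM of 0 in all 10 libraries, among them MIR155HG, the host of an immune cell microRNA. A further 18 were above 0 in some library but failed the filter on low values in both tables (0.5 TPM or more in 2 or more libraries of a table), and the highest value among them was 1.03 in MIRLET7A1HG. The filter was passed by 20 hosts in either table, 16 in the first and 19 in the second. Tests were run on 19 of them, 15 in the first table and 18 in the second, because MIR4697HG had no match in the annotation and its gene type was therefore unknown. MIR4697HG lay between 1.92 and 2.52 TPM in the first table and between 3.54 and 4.06 in the second, and its groups overlapped in every comparison. 10 TPM or more in some library was reached by 6 hosts: MIR222HG, MIR210HG, MIR503HG, MIR17HG, MIR4453HG and MIR762HG.

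**Figure D1:**
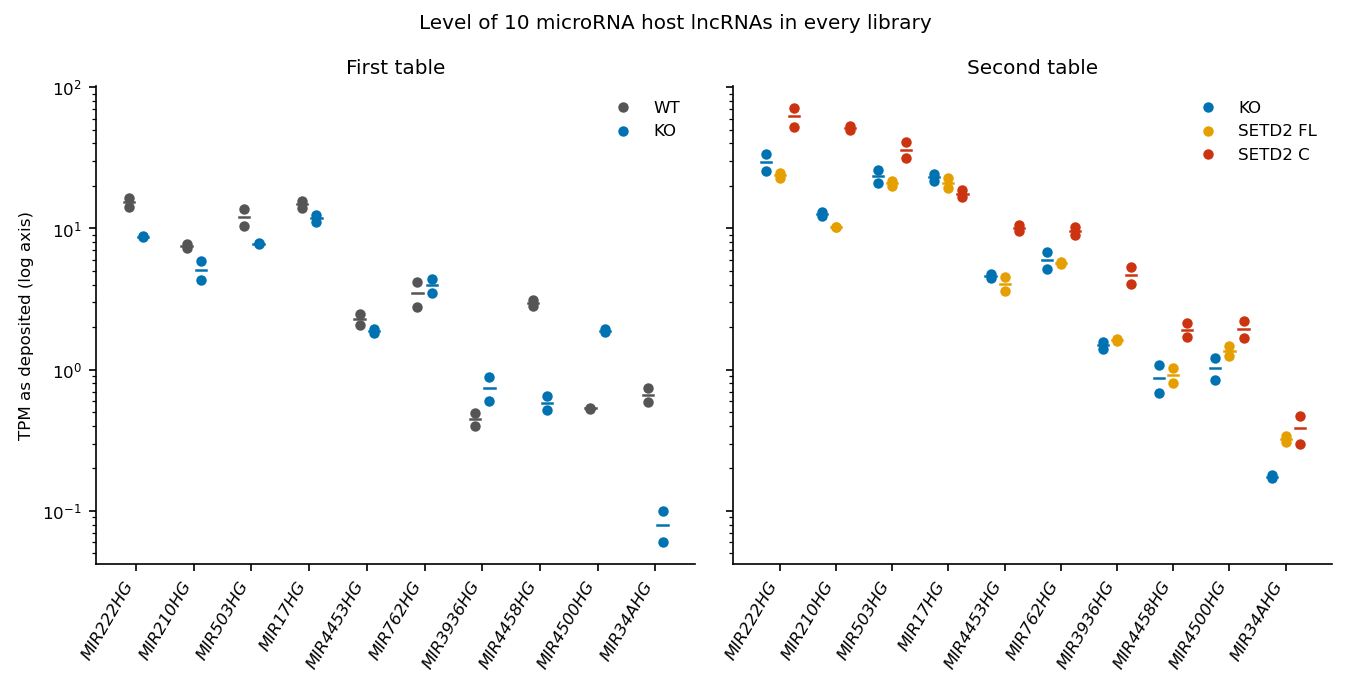
TPM as deposited (log axis) of the 10 hosts that passed the test in any comparison, with a point for each library and a short line for the group mean, first table at left and second at right. In the second table the SETD2 C libraries sit highest for MIR210HG (52.77 and 49.78 against 10.24 to 13.17) and lowest for MIR17HG (16.79 and 18.58).

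The hosts differ in where the hairpin lies. GENCODE 44 on GRCh38 places 38 hairpins on the strand of the 19 tested hosts. MIR210HG (ENSG00000247095) spans 565657 to 568457 on the minus strand of chromosome 11, has 2 exons and holds its hairpin in the intron, 259 bases from its start. MIR222HG (ENSG00000270069, chromosome X, 45745210 to 45770274, minus strand) holds both hairpins in the last part of its single intron, and that of miR-221 touches an exon of another transcript. MIR503HG (ENSG00000223749, chromosome X, 134543119 to 134546642, minus strand) has miR-503 in its first intron, while the hairpin of miR-424 overlaps the gene's start only in part. Both mature sequences of miR-424 lie before that start. MIR17HG (ENSG00000215417, chromosome 13, 91347686 to 91397592, plus strand) carries its 6 hairpins in an exon of 3 of its 16 transcripts and in an intron of the canonical one. MIR4453HG (ENSG00000268471, chromosome 4, 152536264 to 152539263, plus strand) is a single exon that contains the hairpin.

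**Figure D2:**
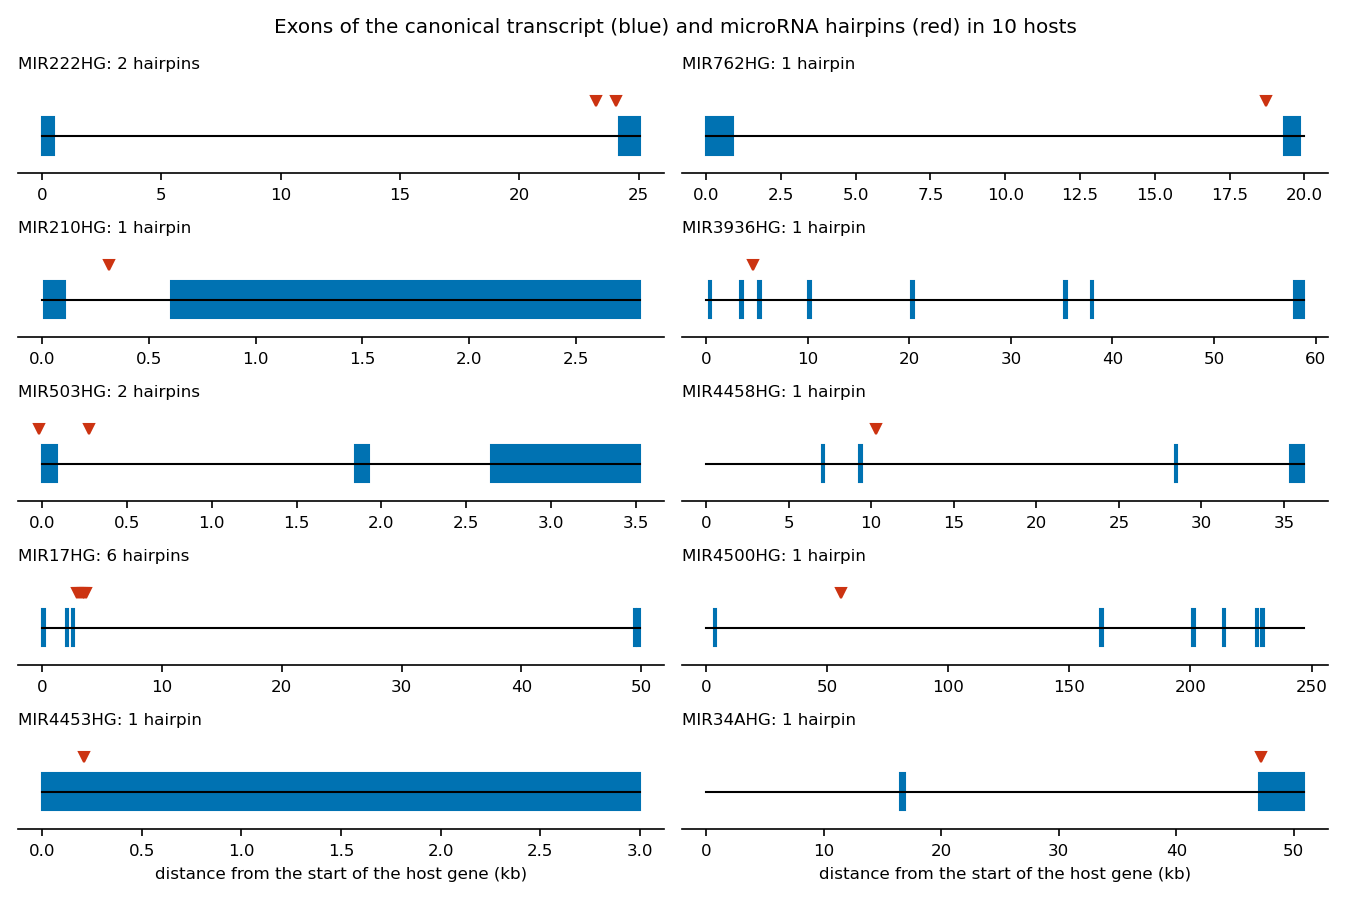
Exons of the canonical GENCODE 44 transcript (blue boxes, very short ones drawn wider to stay visible) and microRNA hairpins on the same strand (red triangles) of the 10 hosts, each against the distance from the start of the host gene in kilobases. The hairpin lies in an exon of the canonical transcript in MIR4453HG and MIR34AHG, and those of MIR17HG lie together near the gene's start.

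MIR3936HG (ENSG00000233006, chromosome 5, 132311285 to 132370170, minus strand) and MIR4458HG (ENSG00000247516, chromosome 5, 8450701 to 8486930, plus strand) each hold their hairpin in an intron of the canonical transcript and in an exon of others, 1 of 8 transcripts and 3 of 12. MIR4500HG (ENSG00000228824, chromosome 13, 87427214 to 87674235, minus strand) is the longest of these at 247022 bases, with an intronic hairpin, and MIR762HG (ENSG00000260083, chromosome 16, 30875222 to 30895220, plus strand) also has an intronic one. MIR34AHG (ENSG00000228526, chromosome 1, 9148011 to 9198906, minus strand) holds its hairpin in the last exon. The hairpins have rows of their own in the tables, and 37 of the 38 were listed at 0 in all 10 libraries. The exception, MIR3936, was listed at 51.35 in the second SETD2 C library and at 0 in the other 9.

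As a check of the labels, the SETD2 transcript stood at 12.62 and 14.82 TPM under the label WT and at 16.19 and 16.31 under the label KO. The transcript level was thus not lower in KO and does not check the disruption, which the study checked by blotting for the histone mark. In the second table it was near 12 TPM in KO (11.99 and 12.15), stood at 422 and 439 with SETD2 FL, and lay between 1264 and 1329 in the SETD2 C libraries. The paper reports no significant difference in mRNA level between SETD2 FL and SETD2 C in its RNA-seq data, whereas the TPM here was higher with SETD2 C. Between 24306 and 27104 genes were above 0 per library, and the 2 highest numbers were those of SETD2 C. TPM sums to the same total in every library, so the depth is unknown. Replicates correlated at 0.993 to 0.995 (Pearson, across genes, which are not independent replicates). All 7 HEK293T markers were above 0 in every library, PAX2 between 0.99 and 2.21 TPM and VIM between 444 and 926. Among the markers of other cells, PTPRC, CD3E, HBB and CDH5 stayed at or under 0.08 and ALB at or under 0.38. COL3A1, of the same list, lay between 0.39 and 1.94 TPM, near the levels of PAX2, so the markers of other cells were not all near 0. The tables were made separately, so levels are compared only within a table.

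In KO against WT, MIR4458HG fell and MIR4500HG rose, and the microRNAs of both carry the seed of let-7. MIR222HG fell by less than 2-fold. MIR99AHG, a further host with that seed, had a log2 fold change of -0.03 and did not pass. Of the 15 hosts tested, 1 was higher and 2 were lower by 2-fold or more with an adjusted p no greater than 0.05 (limma on log2 of scaled TPM plus 0.5, Benjamini-Hochberg over every gene tested; SE denotes the standard error of a log2 fold change). The lower ones were MIR4458HG and MIR34AHG, and MIR34AHG passed the filter only through the WT libraries, so its place in these counts supports nothing. Across all 14746 genes tested in that table, 0.339% were called higher and 1.02% lower. By the adjusted p alone, 1 host rose and 3 fell, against 1.32% and 3.17% of all genes. The median log2 fold change of the 15 hosts was -0.29, with 11 negative and 4 positive, while the median was -0.10 over all 1834 lncRNAs tested and -0.01 over all genes. Of those lncRNAs, 1166 were negative.

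MIR4458HG, the lncRNA whose hairpin gives miR-4458, had a TPM of 2.81 and 3.12 in WT and of 0.52 and 0.65 in KO. Both KO libraries lay far below both WT libraries, with a log2 fold change of -1.77 (SE 0.15, adjusted p = 0.00276). The call held in 13 of 13 alternatives that could test it. MIR4500HG showed the reverse, at 0.54 and 0.53 TPM in WT and 1.94 and 1.84 in KO. The groups did not overlap, and the log2 fold change was 1.12 (SE 0.16, adjusted p = 0.0172). Without the first or the second KO library the change remained at 1.09 and 1.14 on the log2 scale, but the adjusted p was 0.0973 and 0.112, within a range of 5.47e-06 to 0.112 over its 13 alternatives.

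MIR222HG had a TPM of 16.45 and 14.18 in WT and 8.66 and 8.87 in KO. It fell by 0.89 on the log2 scale (SE 0.15, adjusted p = 0.0278), short of the 2-fold threshold, and the adjusted p was 0.0883 and 0.0969 without the first or the second KO library (0.00155 to 0.131 over its 14 alternatives). MIR34AHG stood at 0.74 and 0.59 in WT and at 0.10 and 0.06 in KO. Having passed the filter only where it was high, it was bound to differ. Its log2 fold change was -1.06 (SE 0.22, adjusted p = 0.0490), and the adjusted p rose to 0.143 and 0.227 without the first or the second KO library (0.00132 to 0.227 over its 11 alternatives, 6 of which lost the call). MIR4458HG, MIR4500HG and MIR34AHG stayed under 4 TPM in every library, a range in which the added 0.5 shrinks fold changes.

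The abundant hosts MIR210HG, MIR503HG and MIR17HG leaned the same way without passing. MIR210HG had a TPM of 7.77 and 7.27 in WT and 5.85 and 4.30 in KO (log2 fold change of -0.66, SE 0.17, adjusted p = 0.0764). MIR503HG was at 13.83 and 10.34 in WT and 7.78 and 7.83 in KO (log2 fold change of -0.71, SE 0.19, adjusted p = 0.0900). MIR17HG was at 15.74 and 14.05 in WT and 12.48 and 11.07 in KO (log2 fold change of -0.45, SE 0.14, adjusted p = 0.113). In each of them both KO libraries lay below both WT libraries. With 2 libraries against 2, an exact permutation test cannot go below p = 0.333 for such a separation. The share of all genes that separate so was not counted, so the separation supports nothing by itself. Without the second WT library all 3 passed at the adjusted p, MIR503HG with a log2 fold change of -1.03, and with the replicate number as a block they passed as well, at adjusted p values of 0.0212 for MIR210HG, 0.0486 for MIR503HG and 0.0427 for MIR17HG (limma). Over the 14 alternatives of each host the adjusted p ranged from 0.0212 to 0.311 for MIR210HG, from 0.00488 to 0.267 for MIR503HG and from 0.0215 to 0.394 for MIR17HG. MIR4453HG (2.06 and 2.50 in WT, 1.95 and 1.82 in KO), MIR762HG (2.79 and 4.17 in WT, 4.42 and 3.50 in KO) and MIR3936HG (0.40 and 0.49 in WT, 0.60 and 0.89 in KO) did not pass, with adjusted p values of 0.191, 0.831 and 0.363.

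**Figure D3:**
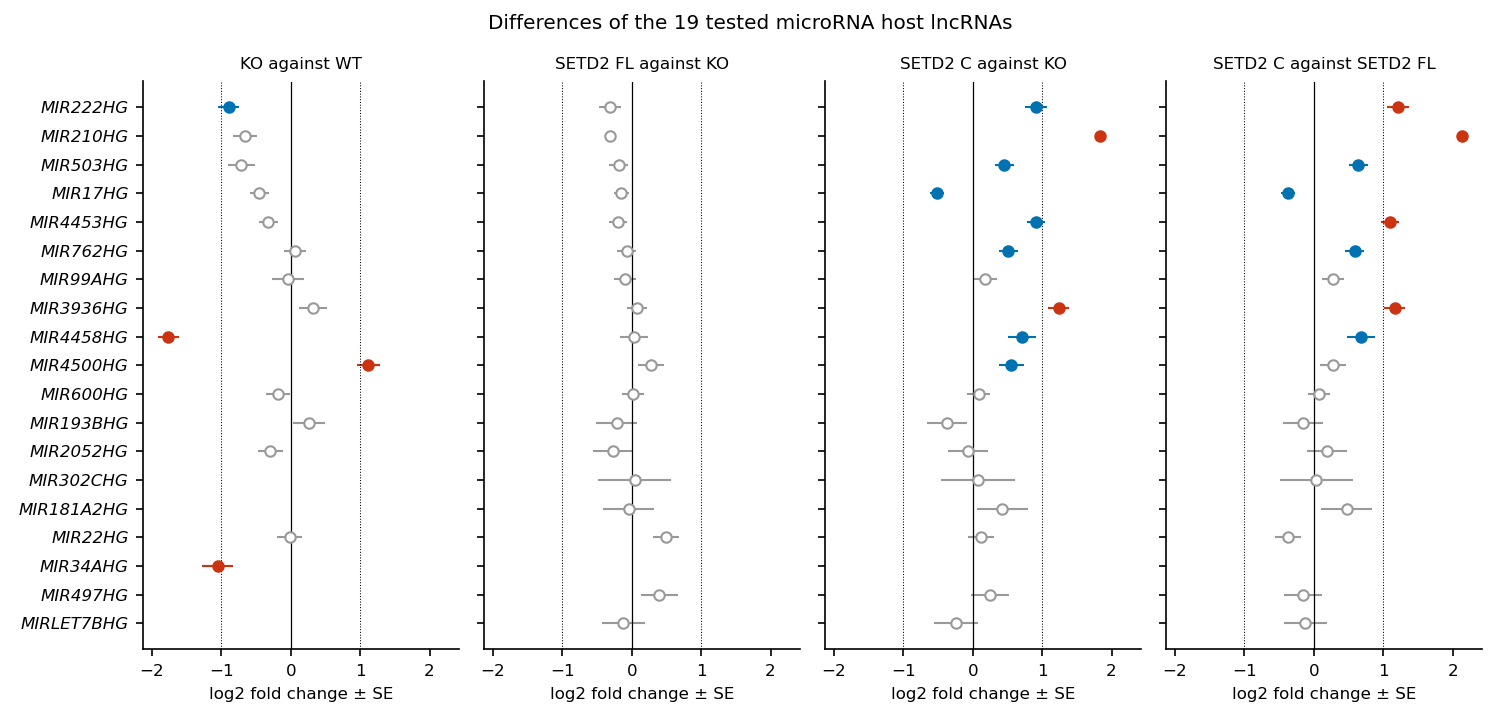
Log2 fold change with its standard error for the 19 tested hosts in the 4 comparisons, dotted lines marking a fold change of 2. Red points passed both thresholds, blue points the adjusted p alone and open points neither; no point is filled for SETD2 FL against KO, and MIR210HG lies farthest to the right in both SETD2 C comparisons.

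Full-length SETD2 moved no host past the test. In SETD2 FL against KO none of 18 hosts was called in either direction by limma, at the fold threshold or at the adjusted p alone, where 0.0816% and 0.207% of all 15933 genes were called. Unadjusted p values under 0.05 were found for 2 hosts, MIR210HG and MIR22HG. MIR210HG had a TPM of 12.18 and 13.17 in KO and 10.24 in both SETD2 FL libraries (log2 fold change of -0.31, SE 0.07, adjusted p = 0.146). MIR22HG, host of miR-22, had 0.54 and 0.66 in KO and 1.09 and 1.02 with SETD2 FL (log2 fold change of 0.50, SE 0.19, adjusted p = 0.264). In both, the groups did not overlap, but the share of all genes that separate so was not counted. Over the 18 hosts the log2 fold changes ran from -0.31 to 0.50 with a median of -0.08, and standard errors from 0.07 to 0.53, so differences of that size in the less abundant hosts were not detectable here.

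The hosts that differed between KO and WT did not pass with SETD2 FL. MIR4458HG was at 1.08 and 0.68 TPM in KO and 1.03 and 0.80 with SETD2 FL (log2 fold change of 0.04, SE 0.20, adjusted p = 0.953). MIR4500HG was at 1.22 and 0.85 in KO and 1.47 and 1.26 with SETD2 FL (0.28, SE 0.19, adjusted p = 0.5003). MIR222HG was at 33.81 and 25.47 in KO and 22.90 and 24.88 with SETD2 FL (-0.31, SE 0.16, adjusted p = 0.377). MIR34AHG failed the filter in the second table, with 0.17 and 0.18 in KO, 0.34 and 0.31 with SETD2 FL, then 0.30 and 0.47 in the SETD2 C libraries. Whether the change between WT and KO differs from that between KO and SETD2 FL was not tested, since the tables were made separately.

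Several hosts were higher with SETD2 C. Of the 18 tested against KO, 2 were higher by 2-fold or more, MIR210HG and MIR3936HG, and none was lower, against 3.75% and 0.314% of all genes. Among lncRNAs, 7.81% were called higher. By the adjusted p alone, 8 hosts rose and 1 fell, which is 44.4% and 5.56% of the hosts beside 21.1% and 15.1% of all genes. LncRNAs as a class leaned the same way, with 31.0% of 2510 higher and 4.18% lower. The median log2 fold change was 0.34 over the hosts and 0.32 over all lncRNAs. Positive changes were found for 14 of the 18 hosts, beside 1885 of the 2510 lncRNAs. These medians depend on the scaling between libraries: the hosts' median was 0.42 without scaling and 0.06 after quantile normalization, while that of all genes went from 0.05 to 0.18 and -0.03. Among the cell markers, KRT8, NEFL and NEFM, which HEK293T cells express, were higher by 2-fold or more with SETD2 C than in KO (1.61, 1.22 and 1.2 on the log2 scale). Among the markers of other cells, COL3A1, a collagen of connective tissue cells, was higher by 0.74 (adjusted p = 0.0153, limma), and the part of either group of markers in the hosts' changes was not tested.

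**Figure D4:**
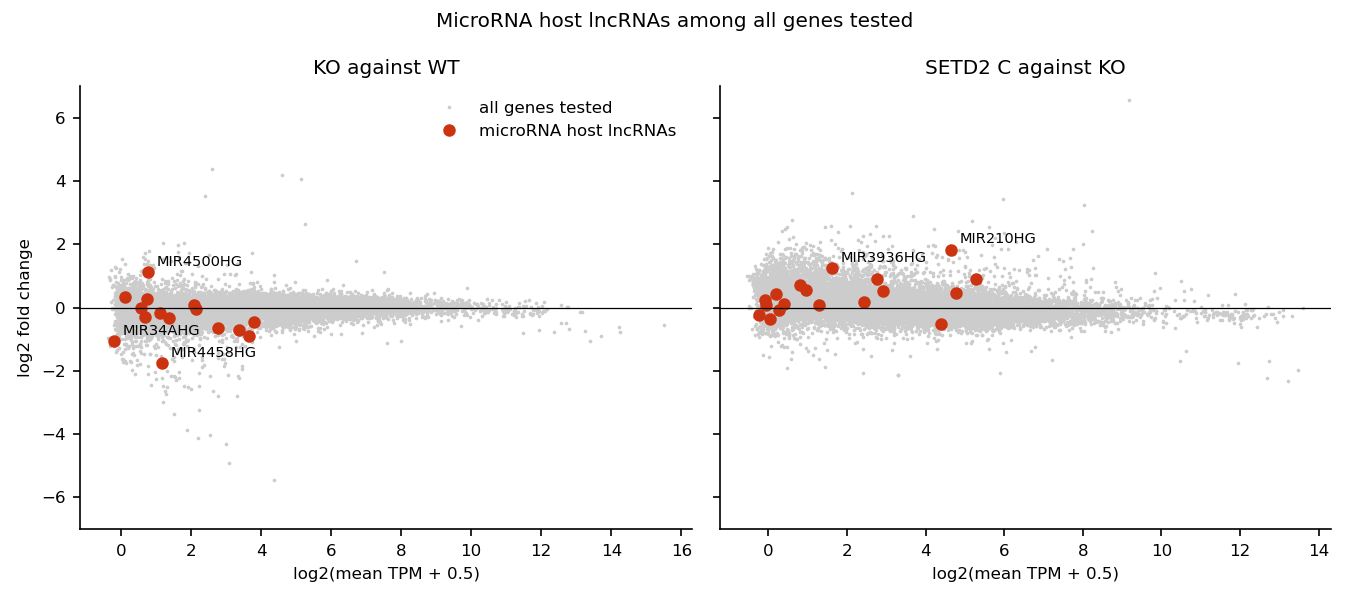
Log2 fold change against log2 of the mean TPM plus 0.5 for all genes tested (grey) and the microRNA host lncRNAs (red), KO against WT at left and SETD2 C against KO at right, with the hosts past both thresholds named. MIR210HG stands at 1.83 among moderately abundant genes, and most other hosts lie within the cloud of genes of like level.

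MIR210HG, the precursor of the hypoxia microRNA miR-210, had the largest and most precise change. Its TPM was 12.18 and 13.17 in KO, 10.24 and 10.24 with SETD2 FL, but 52.77 and 49.78 with SETD2 C. The SETD2 C libraries stood apart from the other 4, which lay close together. The log2 fold change was 1.83 against KO (SE 0.07, adjusted p = 7.3e-06) and 2.14 against SETD2 FL (SE 0.07, adjusted p = 4.15e-06). It passed under all 14 alternatives in both comparisons, with values from 1.77 to 1.97 and from 2.09 to 2.27. Its annotated neighbours had no rise that passed: RASSF7, 1632 bases away on the other strand, lay between 11.67 and 13.96 TPM in all 6 libraries (log2 fold change of -0.15 against KO, SE 0.08, adjusted p = 0.202), and PHRF1, 8013 bases to the other side, fell by 0.33 (SE 0.09, adjusted p = 0.0240).

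Hypoxia-inducible factors bind a core of ACGTG or GCGTG, and the window from 250 bases before to 50 after the RefSeq start of MIR210HG holds it 2 times as read along the gene. The window is chr11:568408-568707 on the minus strand of GRCh38.p14, shown here 5′ to 3′ with the matches in capitals because this host moved with the hypoxia genes described next.
MIR210HG promoter: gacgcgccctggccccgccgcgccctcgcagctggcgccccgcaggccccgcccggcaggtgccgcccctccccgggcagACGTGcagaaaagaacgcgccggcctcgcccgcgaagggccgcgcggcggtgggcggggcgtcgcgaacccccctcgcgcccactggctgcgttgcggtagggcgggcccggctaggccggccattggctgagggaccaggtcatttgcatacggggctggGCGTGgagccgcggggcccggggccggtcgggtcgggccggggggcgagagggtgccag
The matches begin 170 and 9 bases before the start. Searched in both orientations, with overlapping matches each counted, the core occurs in 48.4% of 35116 RefSeq promoter windows of that length. It also occurs in the windows of MIR503HG (2 matches), MIR762HG (3), MIR4458HG (3), MIR34AHG (3) and MIR3936HG (1), and no match was found in those of MIR222HG, MIR17HG, MIR4453HG and MIR4500HG. A match is a string of letters and does not show binding.

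The hypoxia-induced protein-coding genes rose with MIR210HG in the SETD2 C libraries. The list of 15 was chosen with earlier results of these data known. Counts from it, in any comparison, describe these genes only and are no test of hypoxia genes as a set. All 15 were higher at the adjusted p against KO, beside 21.1% of all genes. Of them, 12 rose by at least 2-fold, beside 3.75% of all genes, and the median log2 fold change was 1.57. CA9 (0.06 and 0.20 TPM in KO, 0.18 and 0.03 with SETD2 FL, 0.87 and 0.61 with SETD2 C) passed the filter only through the SETD2 C libraries. It was bound to differ, so its place in the counts of both SETD2 C comparisons supports nothing. The list includes ANKRD37 (3.44), HILPDA (3.24), a lipid droplet protein, and the vasodilator peptide ADM (2.89), and 5 of the 15 had a larger change than MIR210HG. Against SETD2 FL all 15 were higher too, and 13 by at least 2-fold, beside 21.4% and 3.36% of all genes. In SETD2 FL against KO none passed, beside 0.207% of all genes called at the adjusted p. In KO against WT, 3 of 14 fell at the adjusted p and 1 rose, beside 3.17% and 1.32% of all genes. DDIT4, an inhibitor of mTOR signalling, fell by 0.82 on the log2 scale, the angiogenic factor VEGFA by 0.71 and P4HA1, a collagen prolyl hydroxylase, by 0.41. The oxygen sensor EGLN3 rose by 0.43. The comparisons with KO share the KO libraries and those with SETD2 C share the SETD2 C libraries, so these counts are not independent of each other. Oxygen, cell density and culture time were not recorded in the labels, and their part in the result was not tested.

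**Figure D5:**
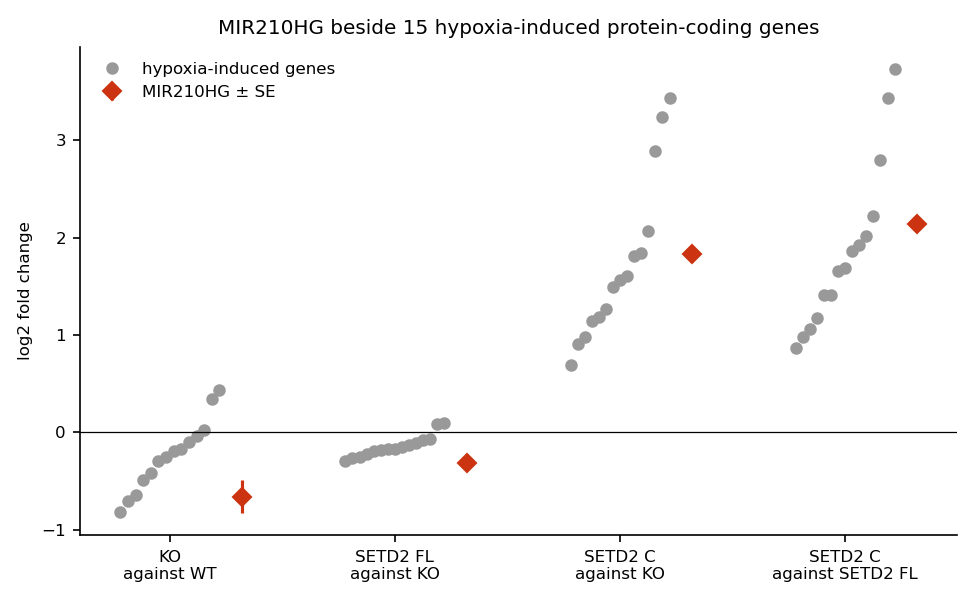
Log2 fold change of MIR210HG (red diamond, with standard error) beside each of the hypoxia-induced genes tested (grey points, sorted within a comparison; 14 in KO against WT, 15 in the others). In both SETD2 C comparisons every grey point lies above 0, among them CA9, which passed the filter only through the SETD2 C libraries. MIR210HG lies inside the range of the grey points there, and in SETD2 FL against KO all lie near 0.

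MIR222HG, host of miR-221 and miR-222, had the highest mean TPM of the hosts in all 3 groups of the second table. It was at 33.81 and 25.47 TPM in KO, 22.90 and 24.88 with SETD2 FL, but 52.64 and 71.60 with SETD2 C. Both SETD2 C libraries exceeded the other 4, although they differed between themselves. The log2 fold change was 0.91 against KO (SE 0.16, adjusted p = 0.00403) and 1.22 against SETD2 FL (SE 0.16, adjusted p = 0.00105). The change against KO passed 2-fold when KO replicate 2 or SETD2 C replicate 1 was left out. A second lncRNA on the same strand, AC234772.2, overlaps it and changed likewise, with 0.16 to 2.03 TPM in the second table and log2 fold changes of 1.19 and 1.56. Reads of the overlapping pair cannot be told apart with certainty. No neighbour within the annotation on either side exceeded 0.26 TPM in any library.

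MIR4453HG starts 172 bases from FBXW7, a ubiquitin ligase gene on the other strand. It was at 4.49 and 4.75 TPM in KO, 4.53 and 3.59 with SETD2 FL, but 9.60 and 10.57 with SETD2 C. The log2 fold change was 0.91 against KO (SE 0.13, adjusted p = 0.00185) and 1.10 against SETD2 FL (SE 0.13, adjusted p = 0.000745). FBXW7 did not pass in either comparison (0.10 and -0.17 on the log2 scale, adjusted p = 0.492 and 0.215). Whether reads were counted by strand is not given in the sources used here.

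MIR3936HG overlaps the solute carrier genes SLC22A4 and SLC22A5, which lie on the other strand. It was at 1.57 and 1.41 TPM in KO, 1.64 and 1.59 with SETD2 FL, but 4.02 and 5.30 with SETD2 C. The 4 former libraries lay together, and the log2 fold change was 1.24 against KO (SE 0.15, adjusted p = 0.000982) and 1.17 against SETD2 FL (SE 0.15, adjusted p = 0.00105). SLC22A5 moved the other way, by -0.56 and -0.62 (adjusted p = 0.00285 and 0.00162), while SLC22A4, between 0.35 and 0.64 TPM, did not pass (adjusted p = 0.588 and 0.476). P4HA2, the nearest gene on the same strand, rose by 0.58 and 0.54 (adjusted p = 0.00657 and 0.00835).

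The remaining hosts that rose with SETD2 C did so by less than 2-fold. MIR503HG was at 25.97 and 21.11 TPM in KO, 21.75 and 19.93 with SETD2 FL, but 31.45 and 40.66 with SETD2 C (log2 fold change against KO of 0.45, SE 0.14, adjusted p = 0.0332). Without KO replicate 4 or SETD2 C replicate 2 its change was 0.31 or 0.28 and did not pass. Its neighbour LINC00629, 3128 bases away on the other strand, rose by 1.09 (SE 0.21, adjusted p = 0.00625). HPRT1, 22606 bases to the other side and also on the other strand, rose by 0.15 (limma, adjusted p = 0.0394). MIR762HG was at 6.77 and 5.15 in KO, 5.75 and 5.59 with SETD2 FL, but 10.27 and 8.93 with SETD2 C (0.51, SE 0.13, adjusted p = 0.0197), and its change was 0.34 and 0.41 and did not pass without KO replicate 4 or SETD2 C replicate 1. BCL7C, which overlaps it on the other strand at 38.95 to 42.78 TPM, did not pass (-0.10, adjusted p = 0.292), while CTF1, 1394 bases away on its strand, rose by 0.46 (adjusted p = 0.0317). To the other side, the lncRNA AC106886.3, 53338 bases away on its strand, rose by 0.85 against KO (limma, adjusted p = 0.0142).

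Of the hosts with a let-7 seed, MIR4458HG and MIR4500HG rose at low levels, while MIR99AHG (0.18, adjusted p = 0.406) and MIRLET7BHG (-0.24, adjusted p = 0.573) did not pass. MIR4458HG was at 1.08 and 0.68 TPM in KO, 1.03 and 0.80 with SETD2 FL, but 1.70 and 2.15 with SETD2 C (log2 fold change against KO of 0.71, SE 0.20, adjusted p = 0.0268). AC091965.1, a lncRNA that overlaps MIR4458HG on the other strand, lay between 0 and 0.53 TPM in the second table, near the filter. Its limma change was 0.98 against KO (SE 0.29, adjusted p = 0.0335) and 0.56 against SETD2 FL (adjusted p = 0.161). AC091965.1 passed the filter only through the SETD2 C libraries and was bound to differ, so these values support nothing. Reads of the overlapping pair cannot be told apart with certainty. MIR4500HG was at 1.22 and 0.85 in KO, 1.47 and 1.26 with SETD2 FL, but 2.20 and 1.67 with SETD2 C (0.56, SE 0.19, adjusted p = 0.0491). MIR4500HG kept its call in 4 of 13 alternatives. Both calls were lost when KO replicate 4 or either SETD2 C library was left out, with changes of 0.51, 0.84 and 0.58 for MIR4458HG and 0.39, 0.40 and 0.71 for MIR4500HG. MIR4500HG had risen in KO against WT and MIR4458HG had fallen there. SLITRK5, a neuronal membrane protein gene inside the span of MIR4500HG on the other strand, did not pass in KO against WT (0.10, adjusted p = 0.604) or in SETD2 C against KO (-0.24, adjusted p = 0.103).

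MIR17HG was the host that fell with SETD2 C. It was at 24.44 and 21.69 TPM in KO, 22.71 and 19.46 with SETD2 FL, but 16.79 and 18.58 with SETD2 C. The SETD2 C libraries lay below the other 4, with a log2 fold change of -0.52 against KO (SE 0.11, adjusted p = 0.00774) and of -0.37 against SETD2 FL (SE 0.11, adjusted p = 0.0267). The call against KO held under all 14 alternatives, from -0.60 to -0.37. The call against SETD2 FL was lost without SETD2 FL replicate 3 (-0.23), without either SETD2 C library (-0.30 and -0.44), without scaling, with no filter on low values and with eBayes without trend. GPC5, 1029 bases downstream on the same strand, did not pass against KO (0.44, adjusted p = 0.0623).

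In SETD2 C against SETD2 FL both groups had been transfected. MIR210HG, MIR222HG, MIR3936HG and MIR4453HG were higher by at least 2-fold and none was lower, 4 of 18 hosts, where 3.36% of all genes were called higher and 0.421% lower and 9.44% of lncRNAs were called higher. By the adjusted p alone, 7 rose and 1 fell, which is 38.9% and 5.56% of the hosts beside 21.4% and 16.8% of all genes and 34.3% and 2.79% of lncRNAs. Beside the 4, MIR503HG rose by 0.64 (SE 0.14, adjusted p = 0.00833), MIR762HG by 0.59 (SE 0.13, adjusted p = 0.0108) and MIR4458HG by 0.68 (SE 0.20, adjusted p = 0.0308). MIR762HG did not pass without SETD2 FL replicate 4 (0.54) or SETD2 C replicate 1 (0.49), and MIR4458HG did not pass without SETD2 FL replicate 4 (0.54) or either SETD2 C library (0.80 and 0.55). MIR4453HG without SETD2 FL replicate 4 (0.92) and MIR3936HG without SETD2 C replicate 2 (0.99) still passed the adjusted p but came under 2-fold.

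The other tested hosts passed no test and had low levels or wide spreads. MIR99AHG, host of miR-99a, let-7c and miR-125b, lay between 2.96 and 5.18 TPM in the first table and between 3.83 and 6.81 in the second. MIR600HG lay between 1.51 and 2.17 over all libraries, MIR22HG between 0.54 and 1.09, MIR193BHG between 0.25 and 1.65 and MIR2052HG between 0.31 and 1.28. MIR302CHG, host of a microRNA cluster of pluripotent cells, was at 0 in both KO libraries of the first table and at 1.23 and 0 in the SETD2 C libraries. MIR181A2HG, MIR497HG and MIRLET7BHG reached 1.2, 0.67 and 0.55 at most.

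No gene of microRNA processing changed by 2-fold. Of 22 listed, 21 were tested in all 4 comparisons. In SETD2 C against KO, 4 of the 21 rose and 3 fell, shares near the 21.1% and 15.1% of all genes. Those that rose were AGO3 by 0.57 and AGO2 by 0.34, both Argonaute proteins, TNRC6B, a silencing partner of Argonaute, by 0.43, and DDX17, a helicase of the DROSHA complex, by 0.23 on the log2 scale. The exporter XPO5 fell by 0.35, its cofactor RAN by 0.34 and the exonuclease XRN2 by 0.18. DROSHA had no call in any comparison. In KO against WT, LIN28B, which blocks let-7 maturation, rose by 0.46 (SE 0.09, adjusted p = 0.0495) from 24.14 and 33.10 TPM to 41.49 and 43.83.

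Messenger RNAs known as targets of the hosted microRNAs did not move as 1 group. Of 17, 4 rose and 2 fell in SETD2 C against KO, shares near the 21.1% and 15.1% of all genes, and none changed by 2-fold. Of the targets of miR-210, GPD1L, a glycerol phosphate dehydrogenase homologue, fell by 0.27 (SE 0.08, adjusted p = 0.0263), EFNA3, an ephrin ligand, rose by 0.37 (SE 0.08, adjusted p = 0.00881), and ISCU, an iron-sulfur cluster scaffold, did not pass (-0.11, adjusted p = 0.119). CDKN1A, a cell cycle inhibitor targeted by the MIR17HG cluster, rose by 0.63 (SE 0.07, adjusted p = 0.00063). IGF2BP1, a let-7 target, fell by 0.33 (SE 0.06, adjusted p = 0.0042). In KO against WT, 2 of 16 rose and none fell, beside 1.32% and 3.17% of all genes. The 2 were CDKN1C, a target of miR-221 and miR-222, by 0.59, and LIN28B. In SETD2 FL against KO only INPP5D of the 17 passed, beside 0.207% of all genes called in either direction. INPP5D is a target of miR-155, whose host was listed at 0. It stood at 0.65 and 0.80 TPM in KO and 2.55 and 2.59 with SETD2 FL.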

How the data were processed

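The RNA-seq libraries of HEK293T cells numbered 10, with 2 per group. According to the labels, RNA was depleted of ribosomal RNA and enriched for polyA RNA, and the authors aligned the reads with STAR 2.6.1c and estimated TPM per gene with RSEM 1.3.0. The deposited TPM values carry no normalization between libraries and no depth, so no counting error can be given. ChIP-seq samples were not analysed here. A single cell marker is not reported here.

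Gene types and positions came from GENCODE 44 on GRCh38 (58472 genes matched by identifier, 31 by symbol, 381 not at all), and microRNA and promoter sequences from RefSeq GRCh38.p14. TPM was scaled in each table by the median ratio of each library over genes at 1 TPM or more in all of its libraries. Genes of protein-coding or lncRNA type that reached 0.5 TPM in 2 or more libraries entered limma 3.58.1 (R 4.3.3, eBayes with trend) as log2 of scaled TPM plus 0.5, two-sided, with Benjamini-Hochberg adjustment over all genes tested. The 6 libraries of the second table shared 1 fit. A call meant 2-fold or more and an adjusted p no greater than 0.05. With 2 libraries against 2, an exact permutation test cannot go below p = 0.333 and was not used. The procedure was tested on simulated data. The hosts, the lists of genes beside them and the alternatives were chosen with earlier results of these data known. Hosts past the adjusted p in any comparison were described in full, and the others by range.

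Alternatives changed the pseudocount (0.1 or 1), the filter (1 TPM in all libraries, or none), the scaling (absent, by quantiles, or by TPM resummed without SETD2 and mitochondrial genes), the gene types (all), the variance prior (no trend), the call (adjusted p only), the libraries in the fit (the compared groups, or each left out) and the block (replicate number, first table).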

Additional observations from a re-analysis of the deposited data

How the results depend on the processing

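With SETD2 C, the calls of MIR210HG, MIR222HG, MIR3936HG and MIR4453HG at the adjusted p held under all 14 alternatives in both comparisons, and no call of a host changed sign under any alternative. In KO against WT, MIR4458HG was the only call to hold throughout. There the number of hosts called higher went from 1 to 0 with a pseudocount of 1, with 1 TPM required in all libraries and with no filter. The number called lower went from 2 to 1 with a pseudocount of 1, no filter, quantile normalization or all gene types, and to 0 with 1 TPM required in all libraries, which leaves these low hosts untested. With each library left out in turn, between 0 and 1 were higher and between 1 and 3 lower. In SETD2 C against KO, hosts called higher went from 2 to 4 without scaling or with TPM rescaled without mitochondrially encoded genes and SETD2, and to 8, with 1 lower, at the adjusted p alone. In SETD2 C against SETD2 FL they went from 4 to 7, with 1 lower, at the adjusted p alone, and to 3 with quantile normalization, where MIR3936HG (0.96) came under 2-fold. Leaving out libraries gave 2 to 3 and 3 to 4. In SETD2 FL against KO no host was called under any alternative. WT and KO share replicate numbers in the first table, and the deviations of same-numbered libraries correlated at 0.147 over 14746 genes. With the replicate block 1 host was higher and 2 were lower as before. Otherwise the numbers mark no known pairing, and the cause of these shifts was not tested. No paired analysis was possible in the second table because the groups share fewer than 2 numbers.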
